A study of Mus musculus with 4 samples.

Results

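The proteasome genes were taken by name: every gene of the deposited table whose symbol joins Psma, Psmb, Psmc, Psmd, Psme, Psmf or Psmg to a number, with an optional ending ip. There were 47 such genes among the 14924 genes of the table. The annotation holds 49 symbols of this form, and *Psma8* and *Psmb11* were not analysed here. By role, the 47 genes were 14 constitutive subunits of the 20S core, 17 subunits of the 19S cap, 3 immunoproteasome subunits, 7 assembly factors and 5 activators or inhibitors. The remaining gene, *Psmc3ip*, shares the name pattern only, since its product acts in meiotic recombination.

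RNA-seq was performed on whole lenses of *S100A4*-/- mice and of their wild type (WT) littermates, all on a C57BL/6J background and without treatment, at postnatal day 30. Each genotype had 2 libraries, and each library was made from 6 to 12 pooled lenses, so the spread between libraries is that between pools and not between animals. The *S100A4*-/- line is a constitutive null, which removes the gene from the lens epithelium, the lens fibers and all other tissues alike. The depth was 81602367 and 74108017 reads on genes for *S100A4*-/- lenses, compared with 70253985 and 68038158 for WT lenses. Values below are normalized values, which are read counts divided by 1 size factor per library, and a single read was worth between 0.856 and 1.09 of them.

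The proteasome is the main protease of the cytosol and nucleus and degrades proteins marked with ubiquitin. Its barrel, the 20S core, is built of outer rings of alpha subunits, which gate the entry, and inner rings of beta subunits, some of which carry the proteolytic sites. The 19S cap recognizes the ubiquitin chain, removes it and unfolds the substrate. In the lens, the ubiquitin-proteasome pathway is known for its activity in the epithelium and the outer fibers, while the inner fibers lose their organelles and keep their crystallins for life. *S100A4*, which was removed here, encodes a small calcium-binding protein.

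The labels held in the data. *S100a4* was at 14.6 and 18.2 in the *S100A4*-/- libraries and at 14420 and 14385 in the WT libraries. *S100a5*, its neighbour on chromosome 3, was at 2248 and 2462 in *S100A4*-/- and at 8.35 and 8.76 in WT. The lens origin showed in the fiber markers: the crystallin gene *Cryaa* was at 11948842 and 13289360 in *S100A4*-/- and at 13062947 and 13333352 in WT.

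Vertebrate proteasome genes are known targets of the transcription factor encoded by *Nfe2l1*, which binds antioxidant response elements, and the immunoproteasome and activator genes are known targets of interferon signalling. RefSeq promoters (assembly GRCm38.p6, 250 bases before to 50 bases after the start) were found for 40 of the 47 genes, with 43 promoters. The antioxidant response element core was searched as TGACNNNGC on both strands. It lay in 6 of the 43 promoters, a share near the 12.4% of all 32851 promoters. These sites are shown because 2 of them belong to catalytic subunits of the core. Each is printed 5′ to 3′ along its gene with the match in capitals, and a match that reads GCNNNGTCA lies on the opposite strand.

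Psmb5 (chr14:54618026-54618050, minus strand): tgaagttgTGACGTCGCggcgttgc
Psmb6 (chr11:70525340-70525364, plus strand): aaagagagTGACGGAGCgctttacg
Psmc6 (chr14:45329589-45329613, plus strand): agccagtaGCTAAGTCAggcattgc
Psmd12 (chr11:107479278-107479297, plus strand): tctGCTGTGTCAcatttgcc
Psmd9 (chr5:123228151-123228175, plus strand): ctagccggTGACCCCGCccacttcc
Psme4 (chr11:30771760-30771784, plus strand): ctgcggctGCAGCGTCAccagaaga

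The core of the interferon-stimulated response element, searched on both strands as GAAA and GAAA with 2 bases between them, lay in 5 of the 43 promoters, against 3.44% of all promoters. The genes were *Psmb3*, *Psmd4*, *Psmd9*, *Psme1* and *Psmg4*. The promoters of the immunoproteasome genes *Psmb8*, *Psmb9* and *Psmb10* and of the activator gene *Psme2* held no match. The sites of *Psme1*, an interferon-inducible activator, and of *Psmg4*, an assembly chaperone, are shown with the match in capitals, and a match that begins with TTTC lies on the opposite strand.

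Psme1 (chr14:55578495-55578520, plus strand): agctgtgcTTTCGCTTTCccttcccg
Psmg4 (chr13:34162971-34162996, plus strand): gcgcatctGAAAGTGAAAgagcgttc

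A CCAAT box (CCAAT or ATTGG) lay in 14 of the 43 promoters, against 37.4% of all promoters. A match is a description of these letters and not a bound site. The proteasome promoters held a median of 19 CG dinucleotides in 300 bases, against 7 over all promoters, and a median GC content of 59%, against 52.7%. The 250 bases before the start of *Psmg1*, the gene with the lowest log2 fold change of the 47, and of *Psmb6*, one of the highest expressed, are shown with CG in capitals. They held 23 and 10 CG dinucleotides.

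Psmg1 (chr16:95990961-95991210, minus strand): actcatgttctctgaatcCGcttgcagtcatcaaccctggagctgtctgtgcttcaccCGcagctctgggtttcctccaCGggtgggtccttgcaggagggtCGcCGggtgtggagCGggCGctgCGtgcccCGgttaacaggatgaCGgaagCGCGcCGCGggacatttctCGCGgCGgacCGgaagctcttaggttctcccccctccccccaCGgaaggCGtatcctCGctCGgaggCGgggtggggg
Psmb6 (chr11:70525107-70525356, plus strand): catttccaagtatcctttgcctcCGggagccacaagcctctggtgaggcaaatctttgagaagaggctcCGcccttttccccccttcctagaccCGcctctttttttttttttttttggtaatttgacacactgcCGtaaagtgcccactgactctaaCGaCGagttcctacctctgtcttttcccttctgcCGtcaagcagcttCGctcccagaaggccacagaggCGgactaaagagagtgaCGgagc

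Levels of genes were compared per kb of exonic length (union of exons of GENCODE M21). The proteasome genes were highly expressed in the lens: their median level was 600.5 per kb, against 69.1 for all genes tested, and the median gene among them lay at percentile 90.1 of all genes tested. The highest were *Psmc5*, an ATPase of the cap, at 6749 per kb, *Psmb4*, a structural beta subunit, at 4191, and *Psmb6*, a catalytic subunit, at 3089.8. The lowest were the immunoproteasome genes *Psmb9* at 1.21 and *Psmb8* at 2.29 per kb. The assembled particle holds its core subunits in equal copy number, but their RNA levels per kb ranged from 160.25 for *Psma3* to 4191 for *Psmb4*. With the longest transcript as the length, the median level was 1028.8 per kb and *Psmb4* was the highest gene, so the order at the top depends on the length used.

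**Figure D1:**
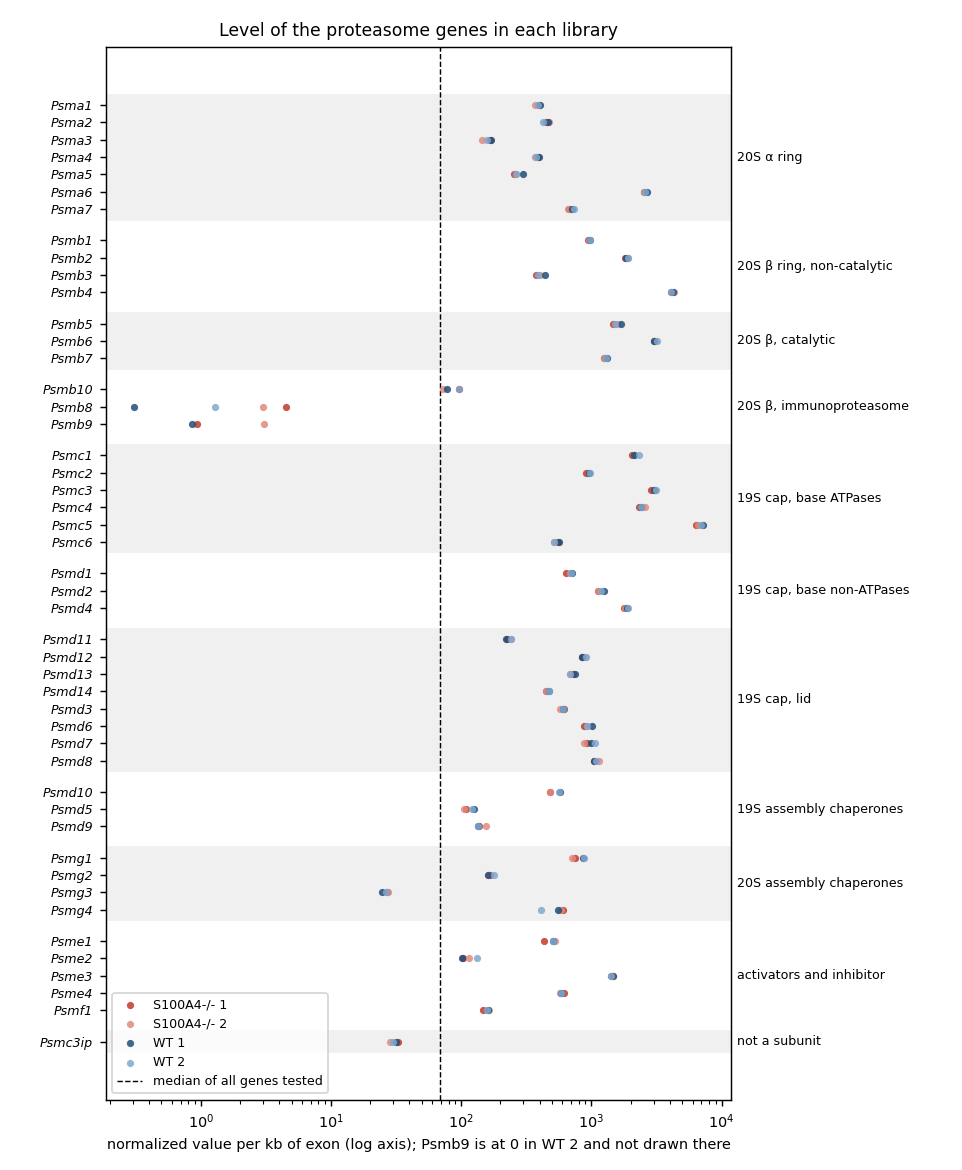
Normalized value per kb of exon (x axis, log scale) of each of the 47 proteasome genes (y axis, grouped by role) in each library, 1 point per library (red, S100A4-/-; blue, WT), with the median of all genes tested as a dashed line. In most rows the 4 points lie on top of each other, and *Psmb8* and *Psmb9* lie far to the left of all other genes.

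The comparison of the genotypes asked which genes the loss of S100A4 changed in the lens. All 47 proteasome genes reached a value of 10 in 1 library or more, the minimum for testing, and limma was used across the 14780 genes that passed. At an adjusted p of at most 0.05, none of the 47 was higher in *S100A4*-/- lenses, where 5.62% of all genes tested were, and 2 were lower (4.26%), where 1.33% of all genes tested were. The 2 genes were *Psmg1*, an assembly chaperone of the core, and *Psmd7*, a subunit of the lid of the cap. None of the 47 reached a 2-fold change at this adjusted p in either direction, where 3.65% of all genes tested were higher and 0.0744% lower. Without adjustment, p was under 0.05 for 8 of the 47, of which 6 had a log2 fold change below 0 and 2 above 0, where 6.71% of all genes tested were lower and 11% higher at this p. edgeR called 1 of the 47 lower and none higher, where it called 1.22% and 5.81% of all genes, and DESeq2 called none, where it called 0.609% lower and 3.86% higher.

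The log2 fold change was below 0 for 35 of the 47 genes, with a median of -0.06, against -0.01 over all genes tested. With equal totals 29 were below 0 and the median was -0.03, against 0.02 over all genes. With the GC and length correction 27 were below 0 and the median was -0.01, against 0.00 over all genes. Among the 3603 genes whose mean value reached 1000, which are as abundant as most proteasome genes, 65.1% had a log2 fold change below 0, the median was -0.03 and 3.64% were called lower. The 33 proteasome genes among them had a median of -0.06, and 25 were below 0. Both *S100A4*-/- libraries lay below both WT libraries for 17 of the 47 genes, where 23.2% of all genes tested and 34.7% of those with a mean of at least 1000 did, and above both for 5, where 23.7% of all genes tested and 15.0% of those with a mean of at least 1000 did. For 45 of the 47 genes (95.7%) the 95% interval of the fold change lay within 1.5-fold in both directions, where it did for 64.8% of all genes tested and 99.1% of those with a mean of at least 1000. *Psmb8* and *Psmb9*, the only members that reached the minimum value in *S100A4*-/- alone, were the exceptions.

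**Figure D2:**
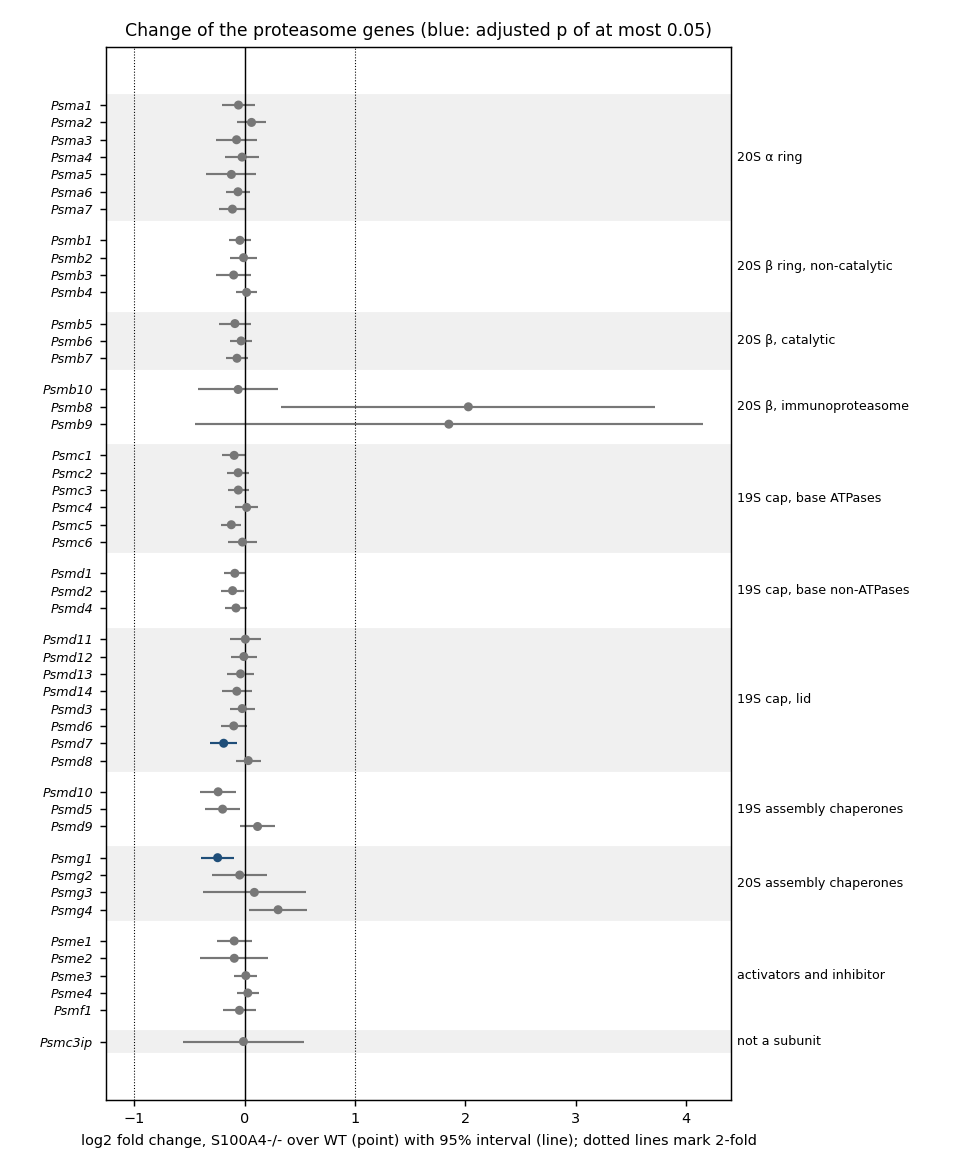
Log2 fold change of S100A4-/- over WT (x axis) of each proteasome gene (y axis, grouped by role), as a point with its 95% interval from limma, in blue where the adjusted p is at most 0.05. The points lie close to 0 except those of *Psmb8* and *Psmb9*, whose intervals are wide, and only *Psmd7* and *Psmg1* are blue.

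**Figure D3:**
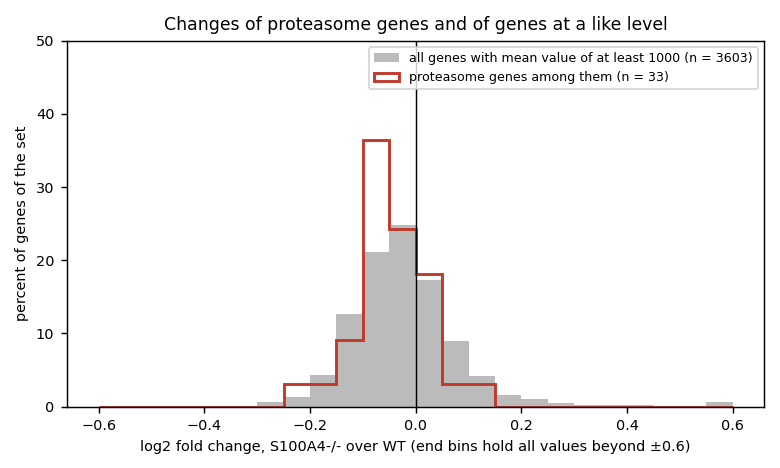
Percent of genes (y axis) by log2 fold change of S100A4-/- over WT (x axis, bins of equal width) for all 3603 genes whose mean value reached 1000 (grey) and the 33 proteasome genes among them (red outline). Both lie mostly below 0, with medians of -0.03 and -0.06.

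The normalized values of the 47 genes summed to 116573 and 119996 in *S100A4*-/- and to 122928 and 121931 in WT, a difference of -3.39%. The *S100A4*-/- sums lay below the WT sums. The sums over all genes tested differed by -1.94%, and those over genes with a mean of at least 1000 by -2.10%. Both of these overlapped between the groups. With the libraries scaled to equal totals the sums were 122318 and 117147 against 122875 and 120015, a difference of -1.41%, and the groups overlapped. The difference thus depended on the scaling, and its cause was not tested. In these bulk samples, fewer cells with a high proteasome level, less RNA per cell and an effect of the scaling cannot be told apart.

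The 7 genes of the alpha ring showed no call. *Psma6*, the highest of them at 2584 per kb, had values of 3119.7 and 3125 in *S100A4*-/- and 3309 and 3203 in WT (log2 fold change -0.06, SE 0.05, adjusted p = 0.621). *Psma5* was the member with the lowest log2 fold change, at 334 and 350.67 in *S100A4*-/- and 394 and 351.46 in WT (log2 fold change -0.12, SE 0.11, adjusted p = 0.642). In both genes the *S100A4*-/- libraries lay below the WT libraries, for *Psma5* by less than 1 in the nearest pair. *Psma3*, the lowest at 160.25 per kb, had 649.97 and 568 against 659.91 and 619, and *Psma2* had the highest log2 fold change with 1660.5 and 1737 against 1695 and 1560.2 (log2 fold change 0.06, SE 0.06, adjusted p = 0.683). Both overlapped between the groups. The median log2 fold change of the ring was -0.06, and 6 of the 7 genes lay below 0.

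The 4 beta subunits without a catalytic site were likewise not called. *Psmb4* was the most abundant of the core and had the highest log2 fold change of the 4, with 7977 and 8479.9 in *S100A4*-/- and 8207 and 8039.9 in WT (log2 fold change 0.02, SE 0.05, adjusted p = 0.895). *Psmb3* was the least abundant, at 404 per kb, with 858 and 934 against 1021 and 901 (log2 fold change -0.10, SE 0.08, adjusted p = 0.57). The groups overlapped for both genes. The median of the 4 was -0.03.

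The constitutive catalytic subunits carry the chymotrypsin-like (*Psmb5*), caspase-like (*Psmb6*) and trypsin-like (*Psmb7*) activities. *Psmb5* had values of 1307 and 1406 in *S100A4*-/- and 1531 and 1355.5 in WT (log2 fold change -0.09, SE 0.07, adjusted p = 0.568). *Psmb6* had 5644 and 5797 against 5713 and 5982.5 (log2 fold change -0.03, SE 0.05, adjusted p = 0.809). *Psmb7* had 4268 and 4279 against 4534 and 4433 (log2 fold change -0.07, SE 0.05, adjusted p = 0.518). The libraries overlapped for *Psmb5* and *Psmb6*, while for *Psmb7* both *S100A4*-/- libraries were the lower ones. Pseudogenes named after each of these 3 genes are annotated, and reads that fit a gene and its copy equally well would have been dropped by counting a single locus only.

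The immunoproteasome subunits *Psmb8*, *Psmb9* and *Psmb10* take the places of *Psmb5*, *Psmb6* and *Psmb7* in cells exposed to interferon and, without it, in many cells of the immune system. *Psmb8* had 18 and 10 reads in *S100A4*-/- against 1 and 4 in WT, which are values of 15.4 and 10.1 against 1.04 and 4.38 (log2 fold change 2.03, SE 0.84, adjusted p = 0.168). Over the group sums of 28 and 5 reads, the ratio was 4.86, with a 95% interval of 1.85 to 16.1 that covers counting error only. The groups did not overlap, but the change did not pass the test. Across the alternatives its log2 fold change ran from 1.22 (pseudocount of 5) to 2.73 (without the second WT library). *Psmb8* reached the minimum value of 10 only in *S100A4*-/-, so its entry into the comparison already favoured a higher value there.

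*Psmb9* had 4 and 11 reads in *S100A4*-/- against 3 and 0 in WT (adjusted p = 0.42). The ratio of the sums of 15 and 3 reads was 4.34, with a counting interval of 1.23 to 23.4, and the 0 of the second WT library allows up to 3 reads, a value of 3.285. The first library of each genotype differed by 1 read. *Psmb9* reached the minimum value of 10 only in the second *S100A4*-/- library, so a ratio above 1 was favoured beforehand here too. An exon of *Psmb9* overlaps an exon of *Tap1* on the opposite strand, and the strand setting of the counting is not given in the sources used here. *Tap1*, a peptide transporter of antigen presentation, had 37 and 28 reads in *S100A4*-/- against 32 and 31 in WT. *Psmb8* overlaps an exon of *Gm20496* in the same way.

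*Psmb10*, the only one of the 3 with over 100 reads in each library, had 191 and 121 reads in *S100A4*-/- against 127 and 150 in WT, or values of 164 and 123 against 133 and 164 (log2 fold change -0.06, SE 0.18, adjusted p = 0.913). Its libraries overlapped between the genotypes.

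**Figure D4:**
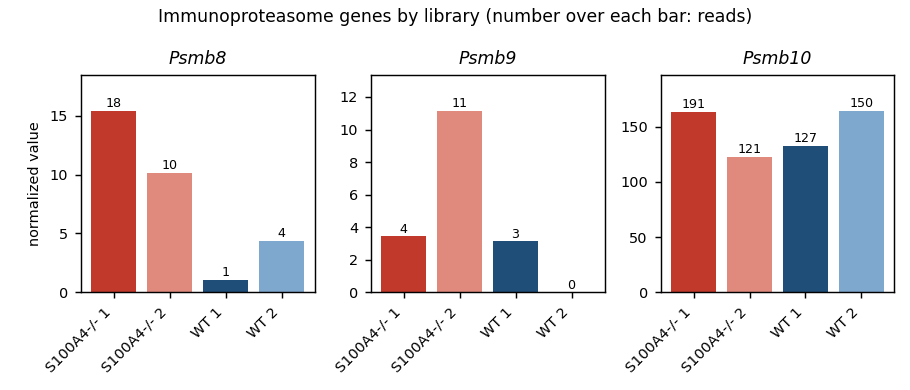
Normalized value (y axis, from 0) of *Psmb8*, *Psmb9* and *Psmb10* in each library (x axis; red, S100A4-/-; blue, WT), 1 bar per library with its number of reads above it. The *Psmb8* bars are higher in both S100A4-/- libraries on 18 and 10 reads, and the *Psmb10* bars overlap.

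Per kb, each immunoproteasome gene was set against the constitutive gene it replaces. *Psmb8* was at 0.314% and 0.192% of *Psmb5* in *S100A4*-/- and at 0.018% and 0.086% in WT. With the longest transcript as the length, these shares were 0.556% and 0.340% in *S100A4*-/- and 0.032% and 0.152% in WT. *Psmb9* was at 0.031% and 0.098% of *Psmb6* in *S100A4*-/- and at 0.028% and 0% in WT. By the longest transcript these were 0.020% and 0.064% in *S100A4*-/- and 0.018% and 0% in WT. *Psmb10* was at 7.69% and 5.75% of *Psmb7* in *S100A4*-/- and at 5.87% and 7.43% in WT. In every library the constitutive subunit thus had by far the higher RNA level. The order of the genotypes for *Psmb8* and *Psmb9* carries the limits given above: both entered through *S100A4*-/- alone, and for *Psmb9* it rests on 4 reads against 3 in the nearest libraries.

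Interferon and antigen presentation genes were listed beside them. Of 15 such genes, 1 was higher in *S100A4*-/- lenses and none was lower, where 5.62% of all genes tested were higher and 1.33% lower, and the median log2 fold change was 0.15. The gene was *Ifit3*, an interferon-induced gene, at 48.8 and 47.6 in *S100A4*-/- and at 11.5 and 13.1 in WT (log2 fold change 1.89, SE 0.40, adjusted p = 0.00126). Its call was lost without the first *S100A4*-/- library or the second, while the log2 fold change was 1.87 and 1.91. Markers of other cells were listed too. Of 8 macrophage and microglia markers analysed, 4 were higher (*Csf1r*, *C1qa*, *C1qb* and *C1qc*), and *Cx3cr1*, *Cd68*, *Tyrobp* and *Fcer1g* did not pass the test. Both *S100A4*-/- libraries lay above both WT libraries for each of the 8, where they did for 23.7% of all genes tested, and the summed values of the 8 were 315 and 269 in *S100A4*-/- and 111 and 92.0 in WT. The highest in value, not corrected for length, was *Csf1r*, the receptor of a macrophage growth factor, at 93.3 and 69.9 against 33.4 and 35.0. Per kb *C1qa*, a complement gene, was the highest at 31.2, with *Csf1r* at 10.03. None of the 8 was at 0 in both libraries of a group. Of the 8, *Cd68*, *Tyrobp* and *Fcer1g* reached the minimum value only in *S100A4*-/-, so their direction was partly fixed by that minimum, and none of the 8 was called without either *S100A4*-/- library (0 and 0) or without the variance trend (0). Another 2 markers of this list, *Ptprc* and *Aif1*, were not analysed here. Cells of the macrophage lineage are known to express the immunoproteasome, and their part in the *Psmb8* and *Psmb9* values was not tested.

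The other marker lists divided in the same fit, where 5.62% of all genes tested were higher and 1.33% lower. All 8 rod photoreceptor markers were higher in *S100A4*-/- lenses, by log2 fold changes of 1.57 (*Pde6b*) to 2.39 (*Rcvrn*), with summed values of 7688 and 7557 against 1886 and 1998, and *Gnat1*, the rod transducin gene, was the highest both in value and per kb. All 5 pigment cell markers (*Dct*, *Tyrp1*, *Tyr*, *Pmel* and *Mlana*) were higher, by 1.27 to 3.92 on the log2 scale, with sums of 1177.5 and 1230.4 against 174 and 261. Without the variance trend 3 of the 5 were called, and fewer than 5 were when either *S100A4*-/- library was left out. *Dct*, an enzyme of melanin synthesis, was the highest in value, while *Tyrp1* was the highest per kb (73.2, against 52.6 for *Dct*). With the longest transcript as the length, *Dct* was the highest at 89.6 per kb. Of 5 endothelial markers analysed, 1 was higher (*Kdr*, a receptor of vascular growth factor, at 74.5 and 60.8 against 9.40 and 9.85), and *Emcn* was not analysed here. No marker of these lists was at 0 in both libraries of a group, and *Mlana* and *Kdr* reached the minimum value only in *S100A4*-/-. None of the 9 lens fiber markers was called in either direction. Their median log2 fold change was -0.06, against -0.03 over all genes with a mean of at least 1000. Of the latter, 65.1% lay below 0, 34.7% had both *S100A4*-/- libraries below both WT libraries and 15.0% above. Of the 9 fiber markers, 7 lay below 0. Both *S100A4*-/- libraries lay below both WT libraries for 4 of them and above for 1. The lowest log2 fold changes among them were those of *Mip*, the main membrane channel of fibers, at 651160 and 650078 in *S100A4*-/- and 711929 and 703651 in WT (log2 fold change -0.12, adjusted p = 0.124), and of *Crygs*, a crystallin gene (-0.11, adjusted p = 0.32). Of 5 lens epithelium markers *Slc7a11*, a cystine transporter, was higher (2816 and 2436 against 2099.8 and 2086), and none was lower. The other 4 were not called: *Pax6* and *Gja1* lay above 0 on the log2 scale (0.07 and 0.15) and *Foxe3* and *Cdh1* below (-0.06 and -0.16), with adjusted p = 0.536 for *Pax6*, 0.0688 for *Gja1* and 0.104 for *Cdh1*. Both *S100A4*-/- libraries lay above both WT libraries for *Slc7a11*, *Pax6* and *Gja1* and below for *Cdh1*. Of all genes tested 23.7% lay above and 23.2% below, and 15.0% and 34.7% of those with a mean of at least 1000. The part of these cells in the proteasome values was not tested.

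The 6 ATPases of the cap form the ring that unfolds substrates, and none passed the test. *Psmc5*, the most abundant of the 47 genes per kb, had values of 8812 and 9219.7 in *S100A4*-/- and 9979 and 9619.8 in WT (log2 fold change -0.12, SE 0.05, adjusted p = 0.116), and both *S100A4*-/- libraries were below both WT libraries. In limma with the replicate block its adjusted p was 0.0429, and 0.303 with the GC and length correction as well. *Psmc4* had the highest log2 fold change of the ring, with 5004 and 5551 against 5242 and 5168 (log2 fold change 0.02, SE 0.05, adjusted p = 0.906). *Psmc6*, the least abundant at 539 per kb, had 1947 and 1797 against 1979.7 and 1816. The last pair of genes overlapped between the groups. Over the 6 genes the median log2 fold change was -0.06.

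Of the other base subunits, *Psmd1* and *Psmd2* are large scaffolds that dock ubiquitin-binding proteins and *Psmd4* is a ubiquitin receptor. *Psmd2* had values of 4530.1 and 4558 in *S100A4*-/- and 5040.1 and 4764 in WT (log2 fold change -0.11, SE 0.05, adjusted p = 0.235). *Psmd1* had 4659 and 4990.4 against 5203 and 5053, and *Psmd4* had 5002 and 5106 against 5296 and 5376 (log2 fold change -0.08, SE 0.05, adjusted p = 0.427). All 3 had both *S100A4*-/- libraries below both WT libraries, and none was called. The same order held for 23.2% of all genes tested and 34.7% of those with a mean of at least 1000. An exon of *Psmd1* overlaps exons of *Htr2b* on the opposite strand and of *Gm21972* on its own strand.

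Of the 8 lid subunits, which include the deubiquitinase *Psmd14*, 1 was lower. Over all genes tested 1.33% were lower, and 3.64% of those with a mean of at least 1000. *Psmd7* (chr8:107580381-107588464, minus strand, GRCm38), which pairs with *Psmd14* in the lid, had values of 2090.4 and 1977 in *S100A4*-/- and 2243 and 2397 in WT (log2 fold change -0.19, SE 0.06, adjusted p = 0.0482). Both *S100A4*-/- libraries were below both WT libraries, and the group means, 2034 ± 79.9 and 2319.8 ± 109 (SD, n = 2), differed by -12.3%. The call held in 2 of 17 alternatives, a pseudocount of 5 and the replicate block. It was lost when any 1 of the 4 libraries was left out, with edgeR (adjusted p = 0.0517) or DESeq2 (adjusted p = 0.187), and with each other setting of scaling, filter, pseudocount, variance trend and GC and length correction (adjusted p up to 0.456). *Psmd14* itself had 1258 and 1261 against 1322 and 1324 (adjusted p = 0.652), with little spread within each group. *Psmd8*, the most abundant lid gene at 1086 per kb (by the longest transcript, *Psmd6* was, at 1891), had 3216 and 3503 against 3228.5 and 3332 (log2 fold change 0.03, SE 0.06, adjusted p = 0.827). *Psmd11*, the least abundant at 233 per kb, had 1423 and 1555 against 1413 and 1551.5. Both overlapped between the groups.

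Taking core and cap apart, the median log2 fold change was -0.06 over the 14 constitutive core genes, with 12 below 0, and -0.06 over the 17 cap genes, with 14 below 0. Of these 31 genes, 14 had both *S100A4*-/- libraries below both WT libraries and none had both above, where 23.2% of all genes tested lay below and 23.7% above, and 34.7% and 15.0% of those with a mean of at least 1000. With the correction for GC content and length, the median was -0.01 over the core genes, with 8 below 0, and -0.04 over the cap genes, with 12 below 0. The difference between core and cap was not tested.

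The assembly factors held the other called gene. *Psmg1* (chr16:95979933-95990960, minus strand, GRCm38), which works with *Psmg2* as a chaperone of the alpha ring, had values of 1007 and 959.78 in *S100A4*-/- and 1159 and 1170.4 in WT (log2 fold change -0.24, SE 0.07, adjusted p = 0.0297). The *S100A4*-/- libraries were both lower, and the group means, 983 ± 33.4 and 1165 ± 8.09 (SD, n = 2), differed by -15.6%. Its promoter is printed above. edgeR also called it (adjusted p = 0.0264), whereas DESeq2 did not (adjusted p = 0.162). The call held in 7 of 17 alternatives and was lost when any 1 of the 4 libraries was left out, with equal totals, quantile normalization or no variance trend (adjusted p up to 0.296), and with the GC and length correction (adjusted p = 0.0794). *Psmg2*, its partner, had 290.3 and 279 against 279 and 309 (log2 fold change -0.04, SE 0.12, adjusted p = 0.903), and the groups overlapped.

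The second pair of alpha ring chaperones is formed by *Psmg3* and *Psmg4*. *Psmg4* had 335 and 323 in *S100A4*-/- and 310.11 and 229 in WT (log2 fold change 0.30, SE 0.13, adjusted p = 0.192), the highest log2 fold change outside the immunoproteasome genes. Most of this distance lay in the second WT library: without it the log2 fold change was 0.09, and without the first WT library it was 0.52 with an adjusted p of 0.013. *Psmg3*, the lowest of the chaperones at 26.3 per kb, had 77.9 and 79.1 against 71 and 76.6 (log2 fold change 0.09, SE 0.23, adjusted p = 0.896).

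The chaperones of the cap base are *Psmd5*, *Psmd9* and *Psmd10*, of which *Psmd10* (gankyrin) is also known as an oncoprotein. *Psmd10*, the most abundant of the 3 at 524 per kb, had values of 703 and 707 in *S100A4*-/- and 842 and 824 in WT (log2 fold change -0.24, SE 0.08, adjusted p = 0.0688). *Psmd5*, the least abundant at 116 per kb, had 794 and 766 against 914 and 878 (log2 fold change -0.20, SE 0.08, adjusted p = 0.142). *Psmd9* lay the other way, at 989 and 1134 against 983 and 970.08 (log2 fold change 0.12, SE 0.08, adjusted p = 0.458). None of the 3 passed the test in the reported fit. In limma with the replicate block the adjusted p of *Psmd10* was 0.0337, and 0.1 with the GC and length correction as well. *Psmd10* and *Psmd5* lay below WT in both *S100A4*-/- libraries and *Psmd9* above, where 23.2% of all genes tested lay below and 23.7% above. *Psmd9* overlaps an exon of *Gm26745* on the opposite strand.

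The activators replace or accompany the cap, and *Psmf1* encodes an inhibitor. *Psme3*, the nuclear activator and the most abundant of the 5 at 1439.7 per kb, had 4198 and 4326 in *S100A4*-/- and 4310.3 and 4149 in WT (log2 fold change 0.01, SE 0.05, adjusted p = 0.945). The interferon-inducible pair *Psme1* and *Psme2* had 957 and 1152 against 1117 and 1124.5 (log2 fold change -0.09, SE 0.08, adjusted p = 0.588) and 183 and 204 against 181 and 235 (log2 fold change -0.09, SE 0.15, adjusted p = 0.823). *Psme4*, a large nuclear activator, had 5204 and 4810 against 4917 and 4889.8 (log2 fold change 0.03, SE 0.05, adjusted p = 0.833). All 5 genes of this group overlapped between the genotypes, *Psmf1* included. Per kb, *Psme2* was at 24.0% and 22.1% of *Psme1* in *S100A4*-/- and at 20.3% and 26.2% in WT. With the longest transcript as the length the shares were 39.6% and 36.5% in *S100A4*-/- and 33.4% and 43.2% in WT, and by either length the genotypes overlapped.

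Genes that work with the proteasome were listed apart. Of 36 listed, 35 were analysed and *Paaf1* was not analysed here. Of the 35, none was higher and 1 was lower, where 5.62% and 1.33% of all genes tested were, and the median log2 fold change was -0.03. The gene was *Rad23b*, a shuttle that carries ubiquitinated proteins to the cap, at 5509.8 and 5591 in *S100A4*-/- and at 6081 and 6253 in WT (log2 fold change -0.15, SE 0.05, adjusted p = 0.0444). Its call was lost when any 1 of the 4 libraries was left out, with the other scalings, without the variance trend, and with edgeR (adjusted p = 0.0697) or DESeq2 (adjusted p = 0.0893). It belongs to the 16 genes of ubiquitin, its activation, shuttles and the segregase, of which no other was called.

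Among the 11 analysed genes of proteasome-associated and maturation factors none was called. *Akirin2*, a factor of nuclear import of the proteasome, had 504 and 477 against 559.7 and 565 (log2 fold change -0.20, adjusted p = 0.262), and *Uchl5*, a deubiquitinase of the cap, had 581 and 581 against 651 and 637 (log2 fold change -0.15, adjusted p = 0.399). None of the 8 regulators of proteasome gene transcription was called. *Nfe2l1* itself had 7589 and 7349 in *S100A4*-/- and 7469.9 and 7438 in WT (log2 fold change 0.00, SE 0.05). *Maff*, a small Maf protein that can pair with it, had 116 and 129 against 79.4 and 84.3 (log2 fold change 0.58, SE 0.20, adjusted p = 0.0827), and *Keap1*, the inhibitor of the *Nfe2l2* product, had 1265 and 1304 against 1452 and 1396 (log2 fold change -0.15, adjusted p = 0.224).

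The median absolute log2 difference between the 2 libraries of a genotype was 0.08 over the 47 genes in *S100A4*-/- and 0.07 in WT, against 0.13 and 0.12 over all genes tested. At a mean value of at least 1000, it was 0.08 and 0.05 over the 33 proteasome genes and 0.06 and 0.05 over all genes. Exons of 12 of the 47 genes overlap those of a gene on the opposite strand and exons of 3 those of a gene on their own strand, so reads there may belong to either gene. *Psmc3ip* had 59.9 and 51.7 in *S100A4*-/- and 57.4 and 54.7 in WT (log2 fold change -0.01, SE 0.27, adjusted p = 0.991) and overlaps *Mlx*.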

How the data were processed

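Stranded single-end mRNA-seq of 4 lens libraries was used, and the sample labels gave the groups. The authors trimmed reads with Trim Galore (reads of at least 20 bases), mapped them with STAR to GRCm38 (Ensembl 73), counted reads of a single locus with HTSeq, removed genes that nowhere reached 10 reads and normalized with DESeq2. What the authors deposited are signal values, the counts over a size factor. In each library 100.0% of them were whole multiples of 1 read (tolerance 0.01), so reads were recovered by division.

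Symbols, positions and lengths came from GENCODE M21 (14782 of 14924 identifiers matched). Genotypes were compared with limma (lmFit, eBayes with trend) on log2(value + 1), with Benjamini-Hochberg adjustment over the 14780 genes that reached a value of 10 in 1 library or more (144 left out). Fold changes are on that scale, which understates those of low genes. The floor of detection was 3 reads. Tests were first tested on simulated data. Genes given with every value were the immunoproteasome genes and their counterparts, called genes, and in each role group those with the highest and lowest log2 fold change and level per kb, and from other lists the called genes or the 2 that changed most; other named genes (among them *Psmd14*, *Psmg2*, *Tap1*, *Nfe2l1*, *Cryaa* and *Psmc3ip*) were chosen after their values were seen. Members, lists and tests were chosen with earlier results of these data known. No column lacked a sample (0 columns). Tools were Python 3.11.15 with scipy 1.17.1, pandas 2.3.3, numpy 2.4.6 and matplotlib 3.10.9, and R 4.3.3 with DESeq2 1.42.0, edgeR 4.0.16 and limma 3.58.1. The alternatives were other pseudocounts, filters, scalings, variance models, count tests on the recovered reads, a replicate block, a GC and length correction and each library left out.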

Additional observations from a re-analysis of the deposited data

How the results depend on the processing

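*Psmg1*, *Psmd7* and the median of the proteasome genes kept their direction in all 17 alternatives, but the calls were fragile. The count of proteasome genes called lower was 2 in the reported fit. It was 1 (*Psmg1*) with a pseudocount of 0.5, no filter, a mean value of at least 50, TMM scaling or edgeR. It was 0 with quantile normalization, equal totals, limma without the variance trend, DESeq2, the correction for GC content and length (also with the replicate block), and in each of the 4 fits that left out a library (0 to 0). It was 4 with the replicate block (*Psmc5*, *Psmd10*, *Psmd7* and *Psmg1*). The count called higher, 0, became 1 (*Psmg4*) with the replicate block and GC and length correction, and 0 to 1 with a library left out. No setting gave a 2-fold call.

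The median log2 fold change of the proteasome genes, -0.0555, was -0.0264 with equal totals (29 of 47 below 0) and -0.0130 with the GC and length correction, with or without the replicate block (27 of 47 below 0), and lay between -0.0568 and -0.0383 with a library left out. The median level per kb, 600.5, was 1028.8 with the longest transcript, and *Psmb8* over *Psmb5* in *S100A4*-/-, 0.253%, was 0.448%. Other pathway genes called lower, 1, were 0 with TMM, quantile normalization, equal totals, no variance trend, edgeR, DESeq2 and a library left out (0 to 0), and 2 with the replicate block and GC and length correction. Interferon and antigen presentation genes called higher, 1, were 0 with a mean of at least 50 and 0 to 2 with a library left out. Macrophage and microglia markers called higher, 4, were 1 with a mean of at least 50, 2 with quantile normalization, 0 without the trend, 1 with DESeq2 and 0 to 4 with a library left out. Pigment cell markers called higher, 5, were 3 with a mean of at least 50, 3 without the trend and 2 to 5 with a library left out. Rod markers called higher were 7 or 8 throughout. Over all genes tested the counts ran from 179 to 982 higher and from 8 to 348 lower, both lowest without the trend, and with equal totals they were 783 and 55 against 831 and 197. The causes were not tested.

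For the 31 proteasome genes given with every value, 475 values across the alternatives kept their call or, where not called, moved by at most 1 SD, 21 uncalled ones moved further, 25 lost and 4 gained a call, and no called value changed sign. Replicate numbers were not shown to pair the libraries: deviations of same-numbered libraries correlated at 0.0119 over all genes tested and 0.0559 over those with a mean of at least 50, with 2 pairs. Fits without a library leave a group with a lone sample, which is assumed to vary like the other group. With 2 pools a genotype, p-values rest on the spread between pools and not between animals. In the reported fit limma draws the variance of each gene toward a trend over all genes tested. Its p-values thus do not measure the spread of a gene's own libraries alone. *Psmb8* and *Psmb9* rest on 0 to 18 reads a library.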
